A study of Mus musculus with 4 samples.

Results

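The transcripts described here are those of 10 mouse genes whose proteins carry Tudor domains and are known from, or related to components of, germ granules: Tdrd1, Tdrd3, Tdrd5, Tdrd6, Tdrd7, Tdrd9, Tdrd12, Tdrkh, Rnf17 and Stk31. They were chosen by symbol, each symbol had a single row, and they make up 10 of 26068 named rows in the deposited table. Each library was made from total RNA of whole testis, taken at 24 days of age from males of the B6D2F1 background, a cross of inbred strains. In the knockout group, 2 libraries, the mice were homozygous for the Adad2 knockout, and in the other group, also 2 libraries, they were wild type. The labels used here do not describe the knockout allele or the number of animals behind a library. Nothing in the labels says that the replicates came from separate animals, so the p-values measure only the spread between these libraries, which may be technical. The values are RPKM, read counts divided by gene length and by sequencing depth, which the authors gave on the log2 scale. This measure is per length, so levels were set beside each other between genes. The gene lengths and the counting tool behind it are not stated, which limits that comparison.

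Tudor domains bind methylated arginines, and in germ cells their main partners are the PIWI proteins, which carry piRNAs, the small RNAs that silence transposons. Multi-Tudor proteins gather PIWI proteins, helicases and RNA in perinuclear granules, namely the intermitochondrial cement and pi-bodies before and during meiosis and the chromatoid body in round spermatids. Several of these proteins are needed to make piRNAs and others to hold the granules together, and mouse mutants of most of them are male sterile. The series asks, by its title, about the role of ADAD2, a germ cell protein that binds double-stranded RNA, in making piRNAs and sperm. The comparison below asks whether transcripts of the Tudor scaffold differed in mice homozygous for the Adad2 knockout.

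All 10 genes were transcribed at moderate to high levels in every library, and none differed between knockout and wild type at a Benjamini-Hochberg adjusted p under 0.05 over all genes (limma). Of the 13414 genes with a mean of at least 1 RPKM, 163 were higher, which is 1.22%, and 959 lower, which is 7.15%. Of the 10 Tudor genes, 0 were higher and 0 lower, so the count of called members was near these background shares. At an unadjusted p under 0.05 there were 2 of 10, Tdrd1 and Tdrd9, both with a positive change. Among all genes 27% met this, 15.6% as higher and 11.3% as lower. The median log2 change was 0.11 over the 10 genes, with a range of -0.04 to 0.39, beside 0.14 over all genes tested. The 95% intervals of all 10 held that overall median. None of the intervals reached further than 1.59-fold higher or 1.21-fold lower. Whole testis is a mixture, in which fewer cells of a type and less RNA per cell cannot be told apart.

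Promoter sequences are shown for 3 of the genes: Tdrd1 and Tdrd9, which had the largest positive differences, and Tdrd7, which was among the highest in level and differed least between its libraries. Each is the 250 bases before the most upstream start that RefSeq lists, on GRCm38.p6, a build other than the mm9 of the expression table. The Tdrd1 window lies on the plus strand at chr19:56825959-56826208, that of Tdrd9 on the plus strand at chr12:111971309-111971558 and that of Tdrd7 on the plus strand at chr4:45965085-45965334. Capitals mark the E-box word CACGTG, the site of MYC and MAX family factors, and the MYB words CAACNG or TAACNG on either strand. In mice A-MYB, encoded by Mybl1, switches on many piRNA pathway genes at the pachytene stage.
Tdrd1: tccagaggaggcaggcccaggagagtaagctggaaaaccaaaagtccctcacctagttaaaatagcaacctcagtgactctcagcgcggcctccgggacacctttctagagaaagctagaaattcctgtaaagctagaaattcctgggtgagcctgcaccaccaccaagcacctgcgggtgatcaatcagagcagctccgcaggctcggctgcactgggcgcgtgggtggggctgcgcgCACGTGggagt
Tdrd9: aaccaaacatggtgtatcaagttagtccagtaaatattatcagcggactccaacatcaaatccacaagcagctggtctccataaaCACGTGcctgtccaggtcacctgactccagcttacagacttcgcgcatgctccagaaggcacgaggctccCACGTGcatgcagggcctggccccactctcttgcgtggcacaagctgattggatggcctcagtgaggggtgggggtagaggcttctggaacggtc
Tdrd7: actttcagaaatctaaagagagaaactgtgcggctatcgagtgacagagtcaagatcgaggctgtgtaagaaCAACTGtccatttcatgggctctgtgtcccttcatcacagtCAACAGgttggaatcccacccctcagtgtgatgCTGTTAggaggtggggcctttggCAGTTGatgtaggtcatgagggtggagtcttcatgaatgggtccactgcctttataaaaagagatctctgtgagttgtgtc
The Tdrd1 sequence holds 1 E-box and no MYB word, the Tdrd9 sequence 2 E-boxes and no MYB word, and the Tdrd7 sequence 4 MYB words and no E-box.

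Promoter windows were found for 8 of the 10 genes, and none was found for Tdrd6 or Rnf17. A MYB word stood in 4 of the 8, beside 43.1% of 32851 promoter windows of the same length. All listed starts of a gene count among these windows, while each member gave only its most upstream start. The sets are therefore unlike, for each word below too. An E-box stood in 3 of the 8, those of Tdrd1, Tdrd9 and Stk31, beside 6.02% of all windows; this word was added to the search after the sequences had been seen. The CRE word TGACGTCA, the site of the spermatid activator CREM, stood in 0 of the 8 and in 1.55% of all windows. Words were sought on both strands, and no window held both an E-box and a MYB word. A word is a match of letters and not a measured binding site.

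As deposited, the levels of the 10 genes spanned 17.1-fold. Gencode M21 gene models give Tdrd6 5 exon blocks, against 37 for Tdrd9 and 39 for Rnf17. The part of exon number in the levels was not tested. Tdrd6, which encodes a long multi-Tudor protein of the chromatoid body, was the highest, at 84.0 to 101 RPKM over the 4 libraries, above 98.2% of the genes tested. Tdrd7 followed at 51.3 to 54.2 RPKM and Tdrd1 at 41.0 to 60.9 RPKM. The ranges of those 2 genes overlapped, so their order is not set by these libraries: Tdrd1 ranked second in the knockout and Tdrd7 second in wild type. Next came Tdrd9 at 31.9 to 39.3 RPKM, Stk31 at 27.0 to 37.1 RPKM and Rnf17 at 26.8 to 28.5 RPKM, each overlapping the range of its neighbour. Tdrd5 stood apart below them at 16.3 to 22.9 RPKM. Tdrd12 (13.2 to 14.1 RPKM) and Tdrkh (10.9 to 13.7 RPKM) overlapped. Tdrd3 was the lowest, at 4.76 to 5.72 RPKM, 2.30-fold below Tdrkh, and 46.0% of the genes tested were lower. Its protein is also known outside the germ line, where it bridges methylated histones and topoisomerase.

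**Figure D1:**
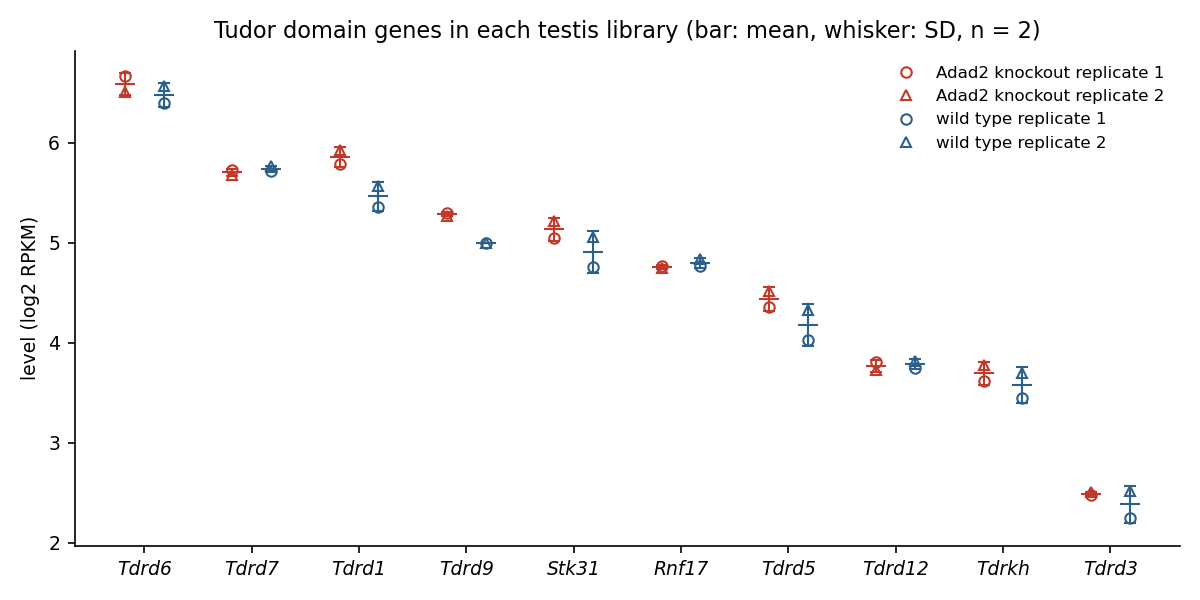
Level of each of the 10 genes (y axis, log2 RPKM) in the 2 knockout libraries (red, left) and the 2 wild type libraries (blue, right), ordered by mean level, with the group mean as a bar and the SD as a whisker. Tdrd6 lies above all others and Tdrd3 below all others in both groups, and only in Tdrd1, Tdrd9 and Tdrd5 do both knockout points lie above both wild type points.

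Tdrd1 and Tdrd9 encode proteins known from the piRNA factories of fetal and meiotic germ cells. TDRD1 has several Tudor domains and binds PIWIL2, also called MILI. Tdrd1 was at 55.0 and 60.9 RPKM in knockout replicates 1 and 2, against 41.0 and 47.3 RPKM in wild type replicates 1 and 2. Both knockout libraries were the higher ones. On the log2 scale Tdrd1 averaged 5.85 ± 0.10 in the knockout and 5.46 ± 0.15 in wild type (SD, n = 2 each), a change of 0.39 (SE 0.12, 95% confidence interval 0.12 to 0.67, limma adjusted p = 0.09), which did not pass the threshold. After quantile normalization it did (adjusted p = 0.0247), where 1.83% of all genes were called higher, and at a threshold of 0.1 it did too, where 4.04% were. With equal library medians, where 1.29% of genes were called higher, 0 of the 10 passed. The gene (ENSMUSG00000025081) lies on the plus strand of chromosome 19, bases 56900699 to 56944502 in mm9.

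TDRD9 joins a Tudor domain to an ATP-dependent helicase and works with PIWIL4, also called MIWI2, in fetal gonocytes. Tdrd9 was at 39.3 and 38.6 RPKM in the knockout libraries, against 31.9 and 32.0 RPKM in the wild type libraries. Both knockout libraries were the higher ones, and the libraries of a group lay close together, with SDs of 0.02 in the knockout and 0.0017 in wild type on the log2 scale. Its change of 0.29 (95% confidence interval 0.06 to 0.52, n = 2 per group) had a limma adjusted p of 0.125. Like that of Tdrd1, its interval lay above 0 while the adjusted p missed the threshold. Tdrd9 (ENSMUSG00000054003, chromosome 12, bases 113209770 to 113307065, plus strand) was the 1 member with another row inside its bounds, the minus-strand BC048943, whose mean was -4.77 log2 RPKM.

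Tdrd12 and Tdrkh also serve piRNA production. TDRD12 is a helicase-like Tudor protein needed for secondary piRNAs. Tdrd12 was at 3.81 and 3.73 log2 RPKM in the knockout libraries and at 3.75 and 3.82 log2 RPKM in the wild type libraries, with overlapping groups. Its change was -0.02 (95% confidence interval -0.25 to 0.22, limma adjusted p = 0.918). TDRKH, a protein of the mitochondrial outer membrane with KH and Tudor domains, recruits PIWI proteins for the trimming of piRNA ends. Tdrkh was at 12.2 and 13.7 RPKM in the knockout libraries and at 10.9 and 13.0 RPKM in the wild type libraries. These groups overlapped too, with a change of 0.12 (95% confidence interval -0.17 to 0.40, limma adjusted p = 0.525). Tdrkh (ENSMUSG00000041912, chromosome 3, bases 94217218 to 94236555, plus strand) ends before Oaz3, an antizyme gene of spermatids on the opposite strand, begins in mm9, and no other row of the table overlaps it there. In the later Gencode M21 models, 34.7% of its distinct 50-base words also occur on either strand of other genes, and all of these occur in Oaz3. Oaz3 was 4.52-fold lower in the knockout (log2 change -2.17, limma adjusted p = 0.000805), and its part in the Tdrkh value was not tested. Tdrd12 (ENSMUSG00000030491) lies on the minus strand of chromosome 7, bases 36254117 to 36322764.

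Tdrd5, Tdrd6 and Tdrd7 encode proteins that build the chromatoid body. TDRD5 carries LOTUS domains, which bind RNA helicases, beside its Tudor domain, and takes part in making pachytene piRNAs. Tdrd5 was at 20.4 and 22.9 RPKM in the knockout libraries, against 16.3 and 20.1 RPKM in the wild type libraries, so the groups did not overlap, although knockout replicate 1 and wild type replicate 2 were close. Its change was 0.26 (95% confidence interval -0.04 to 0.56, limma adjusted p = 0.23). Tdrd6 was at 101 and 91.1 RPKM in the knockout libraries and at 84.0 and 94.6 RPKM in the wild type libraries. Those groups overlapped, with a change of 0.11 (95% confidence interval -0.17 to 0.38, limma adjusted p = 0.545). TDRD7, like TDRD5, has LOTUS and Tudor domains, and mouse mutants lose the compact form of the chromatoid body. Tdrd7 was at 53.0 and 51.3 RPKM in the knockout libraries and at 52.4 and 54.2 RPKM in the wild type libraries. It showed overlapping groups and a change of -0.03 (95% confidence interval -0.27 to 0.20, limma adjusted p = 0.839). In mm9 Tdrd5 (ENSMUSG00000060985) occupies bases 158185426 to 158233795 of chromosome 1, minus strand. Tdrd6 (ENSMUSG00000040140) occupies bases 43752284 to 43767248 of chromosome 17, minus strand. Tdrd7 (ENSMUSG00000035517) occupies bases 45978206 to 46047633 of chromosome 4, plus strand.

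Rnf17, Stk31 and Tdrd3 join Tudor domains to other functions. RNF17 has a RING finger and several Tudor domains, forms granules of its own in spermatocytes and spermatids, and in mice keeps meiotic piRNAs from being amplified on wrong targets. Rnf17 was at 27.3 and 26.8 RPKM in the knockout libraries and at 27.1 and 28.5 RPKM in the wild type libraries. Its groups overlapped, with the most negative change of the 10, -0.04 (95% confidence interval -0.27 to 0.19, limma adjusted p = 0.79). The lower end of this interval is a level 1.21-fold lower in the knockout, and spread between animals may not be in it. STK31 joins a Tudor domain to a kinase-like domain. Stk31 was at 33.1 and 37.1 RPKM in the knockout libraries and at 27.0 and 33.3 RPKM in the wild type libraries. Wild type replicate 2 lay just above knockout replicate 1, so the groups overlapped, and the change was 0.23 (95% confidence interval -0.08 to 0.53, limma adjusted p = 0.279). Tdrd3 was at 5.55 and 5.66 RPKM in the knockout libraries and at 4.76 and 5.72 RPKM in the wild type libraries. Its groups overlapped, and its change was 0.10 (95% confidence interval -0.19 to 0.40, limma adjusted p = 0.588). All of these are plus-strand genes: Rnf17 (ENSMUSG00000000365) at bases 57021534 to 57143869 and Tdrd3 (ENSMUSG00000022019) at bases 87816390 to 87945315 of chromosome 14, and Stk31 (ENSMUSG00000023403) at bases 49345603 to 49419500 of chromosome 6.

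**Figure D2:**
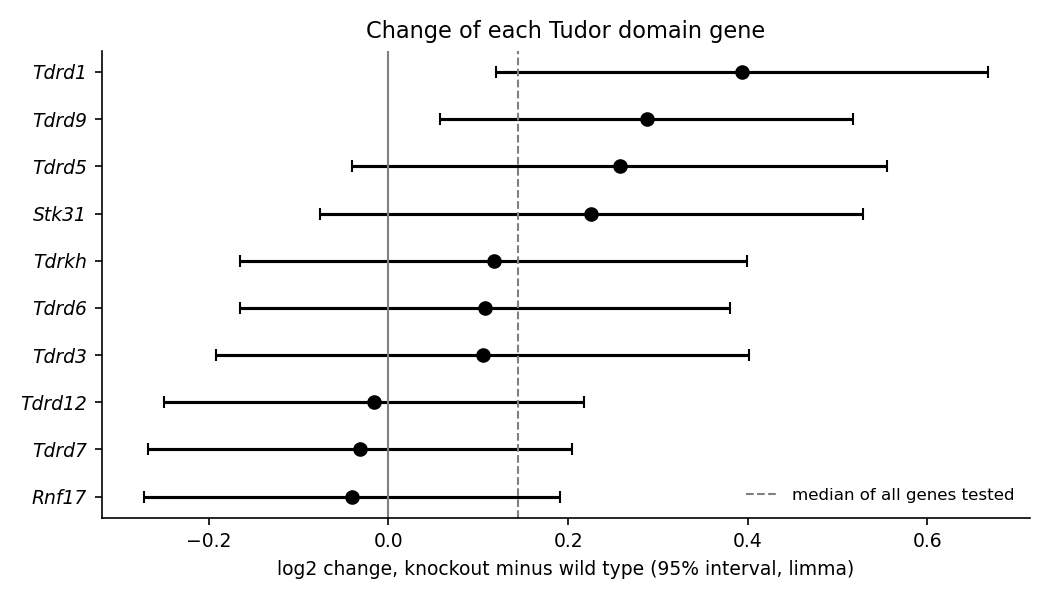
Log2 change (x axis, knockout minus wild type) of each gene with its 95% interval from limma, the solid line at 0 and the dashed line at 0.14, the median over all genes tested. All 10 intervals hold the dashed line, and those of Tdrd1 and Tdrd9 lie above 0.

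Both knockout libraries lay above both wild type libraries in 3 of the 10 genes, Tdrd1, Tdrd9 and Tdrd5, beside 46.4% of all genes tested. Both lay below in 0 of the 10, beside 16.8%. In 7 of the 10 the change was above 0, beside 71.8% of all genes tested, and 4 of the 10 had a change above the overall median. A change smaller than 1.5-fold was found in 10 of 10, beside 90.7% of all genes tested. Among the 7005 genes whose mean level lay in the range of the members, 1.6% were called higher and 7.34% lower. The smallest change called in that range was 0.39 on the log2 scale, about that of Tdrd1.

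Within the wild type group the 10 genes all lay on the same side. Wild type replicate 1 was lower than replicate 2 in 10 of 10, beside 55.1% of all genes tested. The difference ran from -0.30, for Stk31, to -0.0024, for Tdrd9, with a median of -0.19 over the 10, beside -0.03 over all genes. Summed levels were also lower in wild type replicate 1 than 2 for meiotic prophase markers (2310 and 2650 RPKM), a list described below. So were those of germ granule partners (1760 and 2010 RPKM), Leydig markers (357 and 515 RPKM) and other Tudor genes (309 and 310 RPKM). Spermatogonial, elongating spermatid, Sertoli and the peritubular to blood markers had higher sums in replicate 1, and round spermatid markers equal sums. In the knockout group replicate 1 was lower in 5 of 10, beside 44.1% of all genes, with a median difference of -0.0023. Without wild type replicate 1 the median change of the 10 genes was 0.0065, and without wild type replicate 2 it was 0.24, while the median over all genes was 0.11 and 0.15. The median of the Tudor genes thus depended on which wild type library it was set against.

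**Figure D3:**
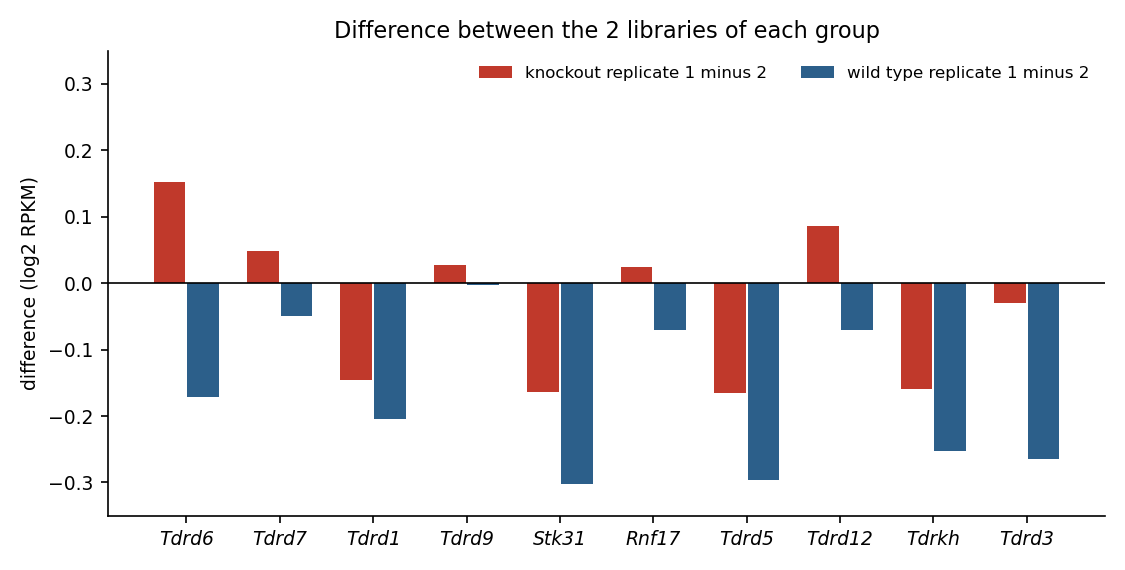
Difference between replicate 1 and replicate 2 (y axis, log2 RPKM) for each gene in the knockout (red, left) and in wild type (blue, right). All 10 wild type bars lie below 0, while the knockout bars point up in 5 genes and down in 5.

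Likeness across the 4 libraries was taken as the root mean square difference of log2 values, each gene centred on its own mean over the 4 libraries, and is a description. It is small for any pair of genes that vary little. Tdrd7 and Rnf17 differed by 0.0123 and Tdrd12 and Tdrd7 by 0.017, but these genes barely varied, with deviations from their own means of 0.0293 (Tdrd7), 0.0334 (Rnf17) and 0.0403 (Tdrd12). Tdrd5 and Stk31 differed by 0.0159, beside deviations of 0.176 (Tdrd5) and 0.166 (Stk31). Among 26 germ granule partners, Tdrd1 was closest to Piwil2 (0.0322, own deviation 0.216), Tdrd9 to Asz1 (0.0251, own deviation 0.144) and Tdrd3 to Piwil1 (0.0163, own deviation 0.108). With 4 libraries the pattern is coarse, and nothing about shared control follows from it.

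Summed over the 10 genes, the level was 361 and 361 RPKM in the knockout libraries, against 309 and 343 RPKM in the wild type libraries. This was 0.187% and 0.192% of the summed RPKM of all genes tested in the knockout, against 0.169% and 0.176% in wild type. Tdrd6 was the largest part of the sum in every library. It made up 28.0% and 25.2% in the knockout and 27.2% and 27.6% in wild type. Tdrd1 made up 15.2% and 16.8% in the knockout and 13.3% and 13.8% in wild type. For Tdrd7 the shares were 14.7% and 14.2% in the knockout, against 17.0% and 15.8% in wild type. A share is a part of a whole, so a larger share of 1 gene lowers the others.

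**Figure D4:**
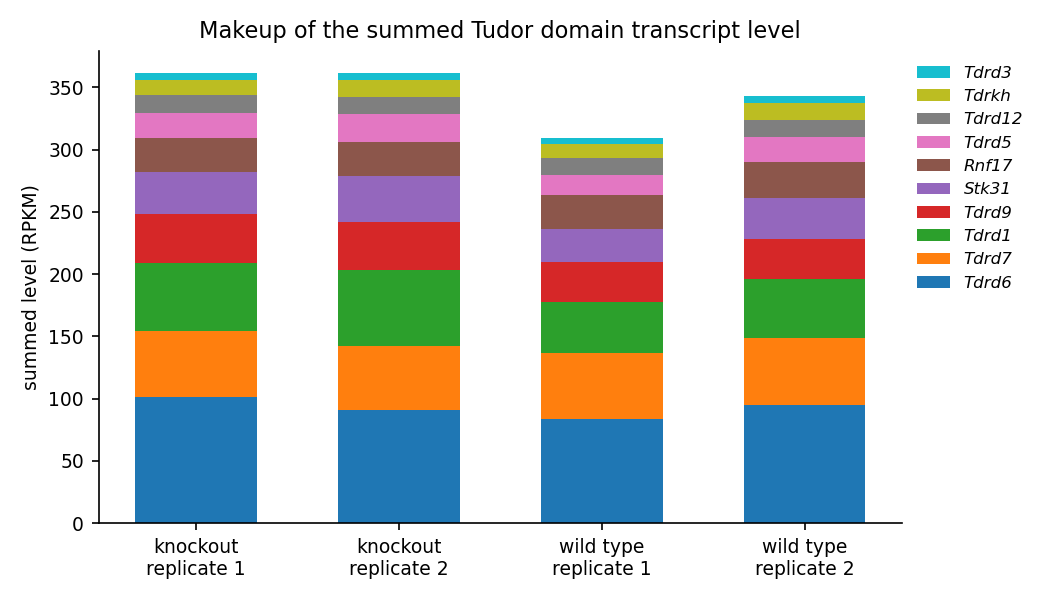
Level of the 10 genes stacked in each library (y axis, summed RPKM), knockout libraries left of wild type libraries. The knockout stacks reach 361 RPKM and the wild type stacks 309 and 343 RPKM, with Tdrd6 the thickest layer in each.

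Other genes, listed here for germ granules and piRNAs, were set beside the Tudor genes. Of 30 genes listed, 29 had a row and 26 reached the filter. Of these 26, 0 rose and 2 fell, beside 1.22% higher and 7.15% lower among all genes tested. The other 24 were not called, and the median log2 change was 0.16. At an unadjusted p under 0.05 there were 7, beside 27% of all genes tested. This count and the count called lower were near the shares over all genes. Those that fell were Kif17, a kinesin found near the chromatoid body, and Tssk6, a kinase of spermatids. Whether Tssk6 belongs to germ granules was not examined, and apart from it only Kif17 was called. Kif17 was at 2.96 and 2.77 log2 RPKM in the knockout libraries, against 4.46 and 4.26 in the wild type libraries (change -1.49, SE 0.12, limma adjusted p = 0.000278). Tssk6 was at 0.00228 and -0.00937 log2 RPKM in the knockout libraries, against 3.48 and 3.40 in the wild type libraries (change -3.44, limma adjusted p = 4.18e-05), and is also on the round spermatid list. For Asz1, whose protein sits with the piRNA machinery on mitochondria, the change was 0.32 (limma adjusted p = 0.094). Without wild type replicate 1 limma called 0 genes of the whole table, with 2357 at an unadjusted p under 0.05. In such a fit the wild type arm is 1 library, assumed to vary like the knockout pair, which alone gives the spread. Kif17 and Tssk6 then had an adjusted p of 0.0535 each, with log2 changes of -1.39 and -3.40.

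Genes with Tudor domains outside germ granules, chiefly readers of histone marks and RNA-binding proteins, gave 23 tested of 25 listed. Of these, 0 rose and 2 fell, beside 1.22% higher and 7.15% lower among all genes tested. At an unadjusted p under 0.05 there were 8, beside 27% of all genes tested, and the median log2 change was 0.23. Akap1 fell 4.07-fold. Its protein anchors protein kinase A on mitochondria and, like TDRKH, has KH and Tudor domains. Akap1 was at 2.31 and 2.18 log2 RPKM in the knockout libraries, against 4.35 and 4.19 in the wild type libraries (change -2.02, 95% confidence interval -2.28 to -1.77, limma adjusted p = 6.02e-05). The Tdrkh interval, -0.17 to 0.40, lies apart from it, and the difference between the genes was not tested. Ccdc101, which encodes the Tudor subunit SGF29 of histone acetylation complexes, fell 2.45-fold (change -1.29, limma adjusted p = 0.0045). For Phf1, a Polycomb partner that reads histone methylation, the change was 0.35 (limma adjusted p = 0.0931). With the wild type arm reduced to replicate 2, Akap1 (log2 change -1.94, adjusted p = 0.0535) and Ccdc101 (-1.17, adjusted p = 0.105) missed the threshold. With it reduced to replicate 1, Ccdc101 (-1.41, adjusted p = 0.0606) missed it. The changes stayed near those of the full fit, and the spread again came from the knockout pair alone.

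**Figure D5:**
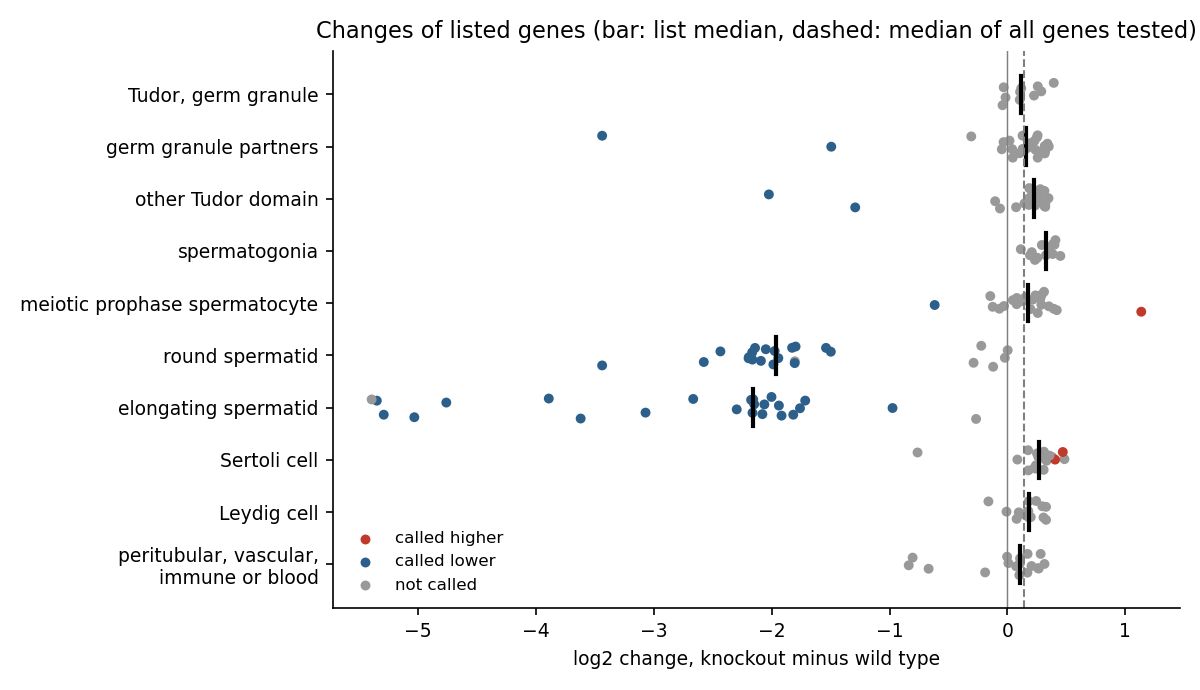
Log2 change (x axis, knockout minus wild type) of every tested gene in each list, with called genes in colour, list medians as bars and the median of all genes, 0.14, dashed. The Tudor genes lie between -0.04 and 0.39, while the round and elongating spermatid lists have medians of -1.96 and -2.16.

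Transcripts listed as markers of the later germ cell stages differed between the groups. Over all genes tested limma called 1.22% higher and 7.15% lower, and 27% had an unadjusted p under 0.05. Adad2 itself was at 3.73 and 3.30 log2 RPKM in the knockout libraries, against 4.66 and 4.47 in the wild type libraries (change -1.05, limma adjusted p = 0.00604). Reads thus remained in the knockout, at 0.483 of the wild type level, and the ADAD2 protein was not measured here. The change was -0.96 without wild type replicate 1 (adjusted p = 0.143) and -1.14 without wild type replicate 2 (adjusted p = 0.0838), with the spread from the knockout pair alone. Of 24 tested round spermatid markers 18 fell, with summed levels of 801 to 927 RPKM in the knockout and 1280 RPKM in both wild type libraries; the median log2 change was -1.96, and the highest over the 4 libraries, Dkkl1 and Spink2, had changes of -0.12 and 0.0022. Of 24 tested elongating spermatid markers 22 fell, summing to 356 to 465 RPKM in the knockout and 1790 to 1910 RPKM in wild type, with a median log2 change of -2.16. The highest over the 4 libraries, Actl7b and Odf2, had changes of -0.97 and -0.27, the 2 smallest of the list, while Prm1, a protamine gene, had -5.29. These are transcript levels, and whether elongating spermatids themselves were present at 24 days was not examined. Of 24 tested markers of meiotic prophase Tex101 rose (limma adjusted p = 0.000977) and Pgk2 fell (log2 change -0.62), and the median of the list was 0.17. The call of Pgk2 was lost with no filter, with limma without trend and robust estimation, and at a threshold of 0.01. It was also lost without knockout replicate 2 or either wild type library. The list summed to 2710 to 2840 RPKM in the knockout and 2310 to 2650 RPKM in wild type. Tex101 alone was at 466.1 and 482.8 RPKM in the knockout libraries, against 202.2 and 230.5 RPKM in the wild type libraries. Sums without Tex101 were not taken, so these sums do not describe the list as a whole. Ldhc and Hspa2 had changes of -0.03 and 0.13. Of 13 tested spermatogonial markers 0 were called and 6 had an unadjusted p under 0.05 (median change of the list 0.33). They summed to 127 to 129 RPKM in the knockout and 100 to 106 RPKM in wild type. The highest in level, Uchl1 and Dmrt1, had changes of 0.33 and 0.25, and Dmrt1 was not among the 6. Of 21 tested Sertoli markers Mro (0.47) and Espn (0.40) rose (median of the list 0.27). Both calls were lost with no filter, with limma without trend and robust estimation, and at a threshold of 0.01. With any 1 library left out, the calls of Mro and Espn were not both kept. Sertoli markers summed to 1340 to 1450 RPKM in the knockout and 1140 to 1220 RPKM in wild type. The highest were Clu (0.33) and Defb19 (0.30). Leydig markers summed to 417 to 586 RPKM in the knockout and 357 to 515 RPKM in wild type. Of these 14 markers 0 were called and 2 had an unadjusted p under 0.05. The highest in level, Insl3 and Cyp11a1, had changes of 0.24 and 0.08 and were not among those 2. Peritubular, vascular, immune and blood markers summed to 128 to 136 RPKM in the knockout and 124 to 169 RPKM in wild type. Of 17 tested 0 were called and 1, Acta2 (change 0.31), had an unadjusted p under 0.05. Hbb-b1, with Acta2 the highest in level, had a change of -0.80. It was at 30.51 RPKM in wild type replicate 1 and 14.66 RPKM in replicate 2, against 10.62 and 13.81 RPKM in the knockout libraries. Its difference thus lay mainly in wild type replicate 1. Of the listed markers, Gfra1 and Nanos3 (spermatogonia), Inhba (Sertoli cells) and Pecam1, Vwf and Ptprc (vessels and immune cells) had a mean log2 RPKM below 0 over the 4 libraries and were not tested. Fscn3 (elongating spermatids) missed the same filter through its low knockout values, at 0.0583 and 0.0163 RPKM in the knockout libraries, against 2.71 and 3.02 RPKM in the wild type libraries. Defining transcripts of testis were present in both groups, including Clu, Insl3, Ldhc and Dkkl1. With the spread from the knockout pair alone, 0 markers of any list were called without wild type replicate 1. Without wild type replicate 2, 6 round spermatid and 18 elongating spermatid markers were called lower. The part of these differences in the Tudor values was not tested.

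From the value of a single read, the libraries held about 32800000 and 28900000 reads in the knockout and 29700000 and 36700000 in wild type. With Gencode M21 exon lengths this puts the members between about 859 reads (Tdrd3, wild type replicate 1) and 24500 reads (Tdrd6, wild type replicate 2).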

How the data were processed

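Total RNA of 4 testis libraries was sequenced; per the labels' protocols they were TruSeq libraries. Software named by the submitters' processing notes is bcl2fastq 2.17.1.14 and Bowtie2, with mm9 as the genome. No counting tool, annotation, strand setting or filter is stated ("not given in the sources used here"). The authors deposited log2 RPKM values in 26127 entries. The 59 entries (0.226%) lacking a gene name were dropped. Columns named control and null were matched to the wild type and knockout labels by number, and the authors' mean columns were not used. Values for genes without reads stood near 0.9 of a read, so no pseudocount was added.

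The test was limma 3.58.1 (R 4.3.3, statmod 1.5.0) with intensity trend and robust estimation and no pairing term, for genes whose log2 mean was at least 0 (1 RPKM). Its two-sided p-values were adjusted by Benjamini-Hochberg over 13414 genes, with a threshold of 0.05. No exact permutation test of 2 against 2 can go below p = 0.333. The code was tested on simulated data; several models of the simulated spread were tried, and the share of changes recovered and the false calls depended on the model. Depth came from the step between low values of single-exon genes: 96.1% to 97.8% of those up to 10 reads lay within 2% of a whole number.

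The members and lists were chosen with earlier results of these data known. Named are the members, Adad2, called genes and the 3 smallest p in the partner and other Tudor lists, the 2 highest genes of each marker list, and 3 close partners. Oaz3, BC048943, Prm1, the called meiotic and Sertoli genes and the markers under the filter were named after their values were seen. Alternatives were other filters, log2(RPKM + 1), quantile normalization, equal medians, plain limma, the replicate block, other thresholds, and each library left out.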

Additional observations from a re-analysis of the deposited data

How the results depend on the processing

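Of 130 member changes under 13 alternatives, 123 kept their direction and their side of the threshold, 3 passed it and 4 changed sign. Tdrd1 was the 1 member called, always as higher: after quantile normalization (adjusted p = 0.0247), with the replicate block (0.0204, beside 13.7% of all genes) and at a threshold of 0.1; over all alternatives its adjusted p ran from 0.0204 to 0.302. The replicate numbers share only a number: differences of replicate 1 and 2 correlated at 0.331 between groups, over 2 pairs. The knockout sum of the members, 361 RPKM, was 360.0 RPKM after quantile normalization and with equal medians.

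Over all genes, higher calls (163) numbered 97 with no filter, 245 after quantile normalization, 1837 with the block, 42 at a threshold of 0.01 and 542 at 0.1. Lower calls (959) numbered 637 with a mean of at least 2, 1477 with the block and 624 at 0.01. Leaving out 1 library gave 0 to 494 higher and 0 to 1308 lower calls, with 0 of each without wild type replicate 1 and 22 higher and 288 lower without wild type replicate 2.

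Higher calls among the partners numbered 1 (quantile), 3 (block) and 2 (0.1), and lower calls 1 with a mean of at least 2. Among other Tudor genes 1 (quantile), 6 (block) and 1 (0.1) were higher. Leaving out 1 library gave 0 to 2 lower partners, 0 to 1 higher and 0 to 2 lower other Tudor genes. Over the marker lists 1 was higher with no filter, with plain limma and at 0.01, 22 with the block and 8 at 0.1, and leaving out 1 library gave 0 to 8 higher and 0 to 43 lower.

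With 1 library left out, changes ran from -0.028 to 0.24 for Tdrd3, -0.059 to 0.027 for Tdrd12, -0.0089 to 0.24 for Tdrkh, -0.15 to 0.0925 for Ldhc, -0.10 to 0.10 for Spink2 and -0.38 to 0.53 for Cyp11a1, and signs changed. Spink2 was at -0.0079 with equal medians. The cause was not tested where the construction of an alternative does not give it. Fits without 1 library take the spread from the other group alone. With about 859 or more estimated reads per member and library, the part of counting error in the spread was not tested.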
